A study of Mus musculus with 26 samples.

Results

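Sorted liver cells without YFP, taken after 7 days of DDC, were compared with liver cells of mice that had eaten chow. DDC is a diet containing a porphyrin-forming toxin that injures bile ducts and hepatocytes. The comparison used 5 of the 20 arrays with a scanner file, chosen by their labels: 3 of 4 samples labelled YFP-negative day 7 (replicates 1, 3 and 4) and 2 of 4 samples labelled day 0 (replicates 1 and 2). The series has 26 samples, and the other 6 are not analysed here.

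All mice carried Foxl1-CRE and RosaYFP, so the chow-fed mice had both alleles too, and were 6 to 10 weeks old. In such mice the recombinase is driven by the Foxl1 promoter, and a cell in which it has acted, with its descendants, makes the fluorescent protein YFP. The day 7 cells were non-parenchymal cells (liver cells other than hepatocytes) that lacked the leukocyte surface protein CD45 and lacked YFP. The day 0 cells were total non-parenchymal cells with no CD45 or YFP gate. Diet and gate therefore changed together and cannot be told apart. The labels do not say that replicates came from separate mice, so p-values measure only the spread between these samples. In bulk RNA, fewer cells of a type and less RNA per cell cannot be told apart.

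The non-parenchymal fraction of the liver holds sinusoidal endothelial cells, stellate cells that store vitamin A, Kupffer cells and other leukocytes, and cells of the bile ducts. In injured liver, stellate cells can become matrix-producing myofibroblasts. Oxidants and electrophiles release the transcription factor NRF2 from its inhibitor KEAP1, and NRF2 then binds antioxidant response elements of genes for glutathione synthesis and conjugation. Glutathione transferases join glutathione to reactive compounds, and those of the alpha class are abundant in hepatocytes.

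Values are levels on a log2 scale, the processed signal of a probe over the 75th percentile of the array, so that 0 is that percentile. Differences are day 7 minus day 0 in log2 units with the standard error. The threshold was an adjusted p under 0.05 in a limma fit across all 20 arrays and 26647 genes. Of all genes 13 passed (0.0488 percent), 6 higher (0.0225 percent) and 7 lower (0.0263 percent). None of the 13 passed in limma with the slide as a fixed block (smallest adjusted p 0.689), with the replicate number as a block (0.0543) or with the 5 arrays alone (0.149). The median of all genes was -0.34, only 36 percent of genes lay above 0, and an unadjusted p under 0.05 was found for 938 genes that were higher (3.52 percent) and 1350 that were lower (5.07 percent). The groups did not overlap for 2750 genes with all day 7 arrays higher (10.3 percent) and 5917 with all lower (22.2 percent). Spots well above background were 88.3, 83.5 and 87.9 percent on the day 7 arrays, against 89.9 and 91.2 percent on the day 0 arrays.

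The labelled gate was checked against leukocyte genes first. Ptprc, which encodes CD45, was at -0.72, 4.45 and 4.43 on day 7 arrays 1, 3 and 4, against 1.51 and -1.79 on day 0 arrays 1 and 2. Arrays 3 and 4 of the cells labelled CD45-negative were thus above both day 0 arrays, and array 1 lay between them. The mean level of 16 leukocyte markers was -1.13, 3.04 and 3.21 at day 7, against 0.36 and -1.65 at day 0, and all 16 were well above background on all 5 arrays. For 11 neutrophil markers it was -3.56, 2.21 and 2.10 at day 7 and -2.11 and -5.75 at day 0. For 19 Kupffer cell and macrophage markers it was -0.39, 3.78 and 3.73 at day 7 and 2.05 and -0.03 at day 0. Arrays 3 and 4 went against the label in these marker genes, and array 1 stood apart from them.

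Hepatocyte genes were present in both non-parenchymal groups. Alb, the gene of serum albumin, was at 5.02, 5.71 and 4.33 at day 7, against 4.42 and 3.81 at day 0, and array 4 lay just below the higher day 0 array. The mean level of 26 hepatocyte markers was 1.19, 1.93 and 0.03 at day 7, against -0.89 and -0.71 at day 0, without overlap. The day 7 arrays were on slides 4, 6 and 7 and the 2 day 0 arrays on slides 1 and 3, so that 0 slides held both groups and slide and group cannot be told apart from these 5 arrays.

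**Figure D1:**
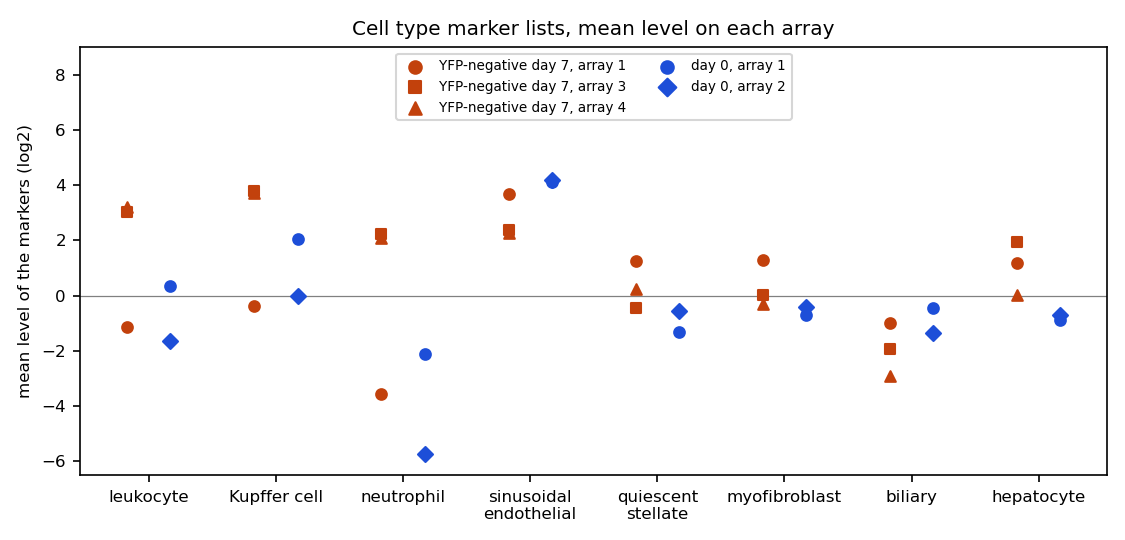
Mean log2 level of the markers of 8 cell types (vertical axis, 0 = the 75th percentile of the array) on each array, YFP-negative day 7 left of day 0, 1 symbol for each array. Leukocyte markers lay at 3.04 and 3.21 on day 7 arrays 3 and 4, against -1.13 on day 7 array 1 and 0.36 and -1.65 on the day 0 arrays.

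Of the 6 genes that passed as higher, 2 alpha-class glutathione transferases had the largest differences, and their probes are shown because they share sequence. The first 28 bases of the Gsta2 probe, in capitals, align with the last 28 bases of the Gsta1 probe, and 27 of the 28 match. The difference is T8A, counted from the first aligned base with the base of Gsta1 first. Another probe, which the array does not assign to a gene, lies on the strand and chromosome of the Gsta2 probe. The sequences are those of the array files, with positions on mm9, 5′ to 3′: chr9:78181644-78181703 on the minus strand, chr9:78083844-78087325 on the plus strand, and chr9:78186458-78186505 on the minus strand.
Gsta2 probe: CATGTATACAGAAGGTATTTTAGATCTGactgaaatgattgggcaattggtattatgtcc
Gsta1 probe: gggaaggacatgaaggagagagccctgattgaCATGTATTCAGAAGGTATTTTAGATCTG
A_51_P305138: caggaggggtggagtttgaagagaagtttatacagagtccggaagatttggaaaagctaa

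Gsta2 was at 4.92, 5.0 and 4.36 on day 7 arrays 1, 3 and 4, against -7.36 and -1.83 on day 0 arrays 1 and 2. Every day 7 array was far above both day 0 arrays, which differed widely from each other, and the probe was well above background on 1 of the 2. Gsta2 rose by 9.36 ± 1.40 (adjusted p = 0.0233). The size of that difference rests on the dim value of day 0 array 1, without which it was 6.59.

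Gsta1 was at 4.98, 4.93 and 4.5 at day 7, against -1.05 and -0.34 at day 0. The groups were far apart and the arrays within each close together. Gsta1 rose by 5.5 ± 0.87 (45.2-fold, adjusted p = 0.0321). With the aligned stretch in both probes, signal of one transcript on the probe of the other was not tested. The unassigned probe was at 4.75, 4.59 and 3.91 at day 7, against -3.74 and -3.25 at day 0, a difference of 7.91 that did not pass (adjusted p = 0.0587).

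On day 7 array 1, where the leukocyte markers were low, Gsta1 and Gsta2 were as high as on arrays 3 and 4. Array 1 was in the fit that called both genes, so a high value there was part of the call. Hepatocyte markers were higher at day 7 as well. The part of leukocyte and of hepatocyte transcripts in the rise was not tested.

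Apoc2 encodes the apolipoprotein that activates lipoprotein lipase. It was at 2.74, 3.54 and 2.46 on the day 7 arrays, against -1.93 and -1.38 on the day 0 arrays, well apart. Apoc2 rose by 4.57 ± 0.69 (23.7-fold, adjusted p = 0.0233, probe at chr7:20257027-20257086).

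Plaur encodes the receptor of urokinase, which focuses plasminogen activation on the cell surface. Its levels were 0.82, 1.78 and 3.12 at day 7, against -2.84 and -1.75 at day 0, the day 7 arrays spread but all higher. Plaur rose by 4.20 ± 0.58 (18.4-fold, adjusted p = 0.0126), and a second probe gave 3.14.

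Tubb6, a beta-tubulin, was at 1.76, 2.06 and 2.18 at day 7, against -1.20 and -1.22 at day 0. Both groups were tight and distinct, and Tubb6 rose by 3.21 ± 0.43 (9.24-fold, adjusted p = 0.0126). Its other probe gave -0.17 ± 0.80, so the rise rests on 1 of 2 probes.

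Prdx6b, a gene closely related to the peroxiredoxin gene Prdx6, was at -2.0, -0.84 and -1.13 at day 7, against -4.20 and -3.53 at day 0. The groups did not overlap, and Prdx6b rose by 2.54 ± 0.40 (5.83-fold, adjusted p = 0.0317). Its other probe gave -1.45 ± 1.48. All 13 genes had the same sign in the authors' deposited table. That table gives the same comparison from the same series, so the shared sign is no independent check. There Gsta2 had a fold of 315, Gsta1 of 42.3, Apoc2 of 24.8 and Plaur of 12.3.

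**Figure D2:**
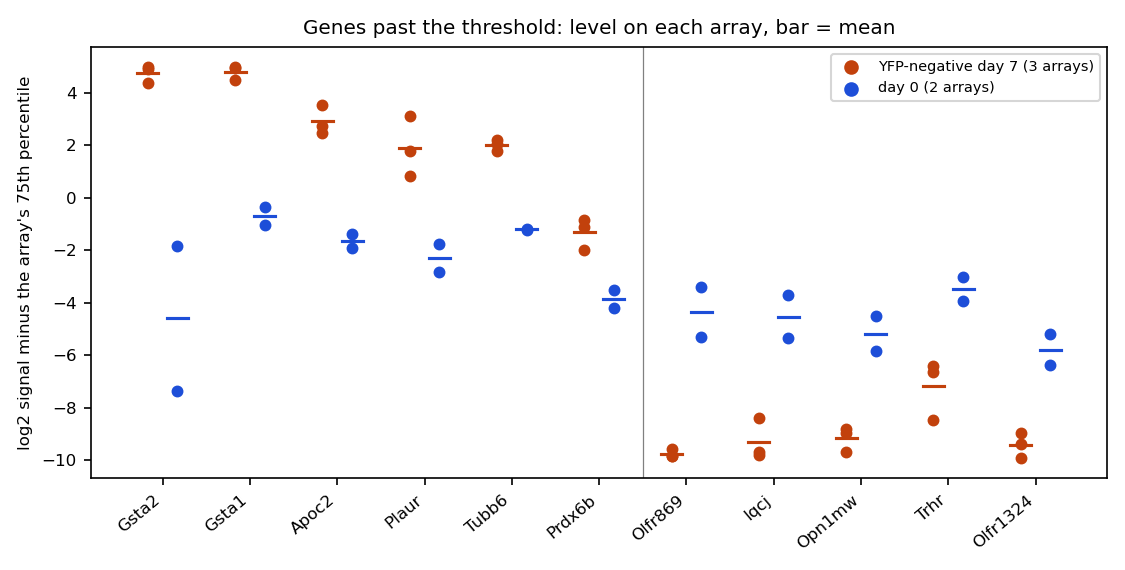
Level of 11 genes past the threshold on each array (vertical axis, log2 processed signal minus the 75th percentile), YFP-negative day 7 left of day 0, bars at the mean. The 6 genes that rose stand left of the vertical line, and the 5 named genes that fell stand right of it with day 7 levels mostly below -8.

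The calls on these 6 genes depended on single arrays. None of the 6 passed without day 0 replicate 1 or without day 7 replicate 3. Without day 7 replicate 4 Plaur and Tubb6 passed and the other 4 did not. Without day 0 replicate 2 Gsta1 (adjusted p = 0.0806) and Apoc2 (adjusted p = 0.0641) did not pass and the other 4 did. The difference of Gsta2 was 12.1 without day 0 array 2.

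The same genes were read with day 7 array 1 as the only day 7 array, since arrays 3 and 4 went against the CD45 label. The lone array was then assumed to vary like the other groups. The differences were 9.52 for Gsta2, 5.67 for Gsta1, 4.39 for Apoc2, 3.11 for Plaur, 2.97 for Tubb6 and 1.87 for Prdx6b. That all 6 were higher on array 1 was fixed in advance. They were called with array 1 in the fit, and the groups did not overlap for any of the 13 genes that passed.

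Genes that fell were dim. Olfr869, an olfactory receptor, was at -9.83, -9.84 and -9.59 at day 7, against -3.42 and -5.31 at day 0 (adjusted p = 0.0288). It was well above background on no day 7 array and on both day 0 arrays, so its fall was at least 10.0-fold, with the dim arrays set at their lowest signal well above background. On the same terms Iqcj, an IQ-motif gene, fell at least 8.93-fold (adjusted p = 0.00360) and Opn1mw, a cone opsin of the retina, at least 5.69-fold (adjusted p = 0.00360).

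Olfr1324 fell at least 3.71-fold (adjusted p = 0.0370). Trhr, the receptor of thyrotropin-releasing hormone, was at -6.42, -6.66 and -8.46 at day 7, against -3.94 and -3.03 at day 0. It was well above background on 2 of 3 day 7 arrays and fell by 3.69 on the log2 scale (adjusted p = 0.0164). The other 2 genes that fell carry only clone identifiers and were at least 2.78-fold and 8.29-fold lower.

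Dim probes as a whole lay lower at day 7. Of all genes, 247 were well above background on no day 7 array and on both day 0 arrays, and 33 the other way round. Of 846 olfactory receptor genes, 465 were well above background on all day 7 arrays and 695 on both day 0 arrays, with a median difference of -0.93. The share of signal near background moved with the group, and its part in the falls was not tested. With normexp background correction 0 genes passed as lower.

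Of the 19 genes of the NRF2 and redox list, 1 passed, Gsta1. The list had a median of 1.31, beside -0.34 over all genes, 16 of 19 were above 0 and 11 had day 7 arrays all higher. Its mean level was 1.76, 2.07 and 1.72 on the day 7 arrays, against 0.41 and -0.10 on the day 0 arrays. Its median level was 1.47, 2.37 and 2.08 on day 7 arrays 1, 3 and 4, against 0.84 and 0.94 at day 0. By the median, array 1, with low leukocyte markers, lay nearest to day 0. The part of leukocyte genes in the redox difference was not tested.

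Gclc, the catalytic subunit of the rate-limiting enzyme of glutathione synthesis, was at 3.55, 3.94 and 3.39 at day 7, against 2.25 and 2.41 at day 0 (1.29 ± 0.32, adjusted p = 0.246). Txnrd1, cytosolic thioredoxin reductase, was at 4.82, 5.10 and 5.43, against 3.69 and 3.92 at day 0 (1.31 ± 0.31, adjusted p = 0.209). Neither passed, although the groups did not overlap for either.

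Slc7a11, the cystine transporter, was at -1.37, -0.34 and 2.53 at day 7, against -6.07 and -10.08 at day 0, where 1 of 2 arrays was well above background (adjusted p = 0.446). Srxn1, sulfiredoxin, differed by 1.80 ± 0.65 and Ugdh, which makes UDP-glucuronate, by 1.77 ± 0.50. Hmox1, heme oxygenase, was at 0.97, 4.16 and 4.46 at day 7, against 0.84 and 0.94 at day 0. Its high arrays were the 2 with high leukocyte markers.

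Other targets had small differences, some with a wide error. Nqo1, a quinone reductase and much-used NRF2 target, differed by 0.20 ± 0.59, and its levels of 3.28, 2.45 and 0.80 at day 7 overlapped 2.19 and 1.75 at day 0. Gclm, the modifier subunit, differed by 0.03 ± 1.11, Nfe2l2, the NRF2 gene itself, by 0.00 ± 0.31, and Keap1 by -0.28 ± 0.38.

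Across the 24 glutathione transferases measured, 2 passed and 18 were above 0, with a median of 1.11. In the alpha class, Gsta4 differed by 4.07 ± 0.89 (adjusted p = 0.174) and Gsta3 by 1.09 ± 0.54. In the mu class, Gstm3 was at 4.84, 4.79 and 4.54 at day 7, against 0.63 and 0.32 at day 0, with a wide gap between groups but no call (4.25 ± 0.86, adjusted p = 0.125). Gstm1 differed by 2.31 ± 0.52, while Gstm2 differed by -0.12 ± 0.49 and Gstm5 by -0.17 ± 0.53. Members of a class resemble each other in sequence, and signal shared between their probes was not tested. Gstt4 was lower at day 7, at -6.5, -7.18 and -6.83, against -1.74 and -4.82 (-3.56 ± 1.03, adjusted p = 0.352).

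Peroxiredoxins reduce peroxides with thiols. Of 7 measured, 1 passed (Prdx6b), 6 were above 0 and the median was 1.55. Signal of the related Prdx6 on the Prdx6b probe was not tested. Prdx3, of mitochondria, differed by 1.59 ± 0.35 (adjusted p = 0.174), Prdx6 by 1.55 ± 0.38, Prdx1 by 1.02 ± 0.38 and Prdx4, of the endoplasmic reticulum, by -0.51 ± 0.41.

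**Figure D3:**
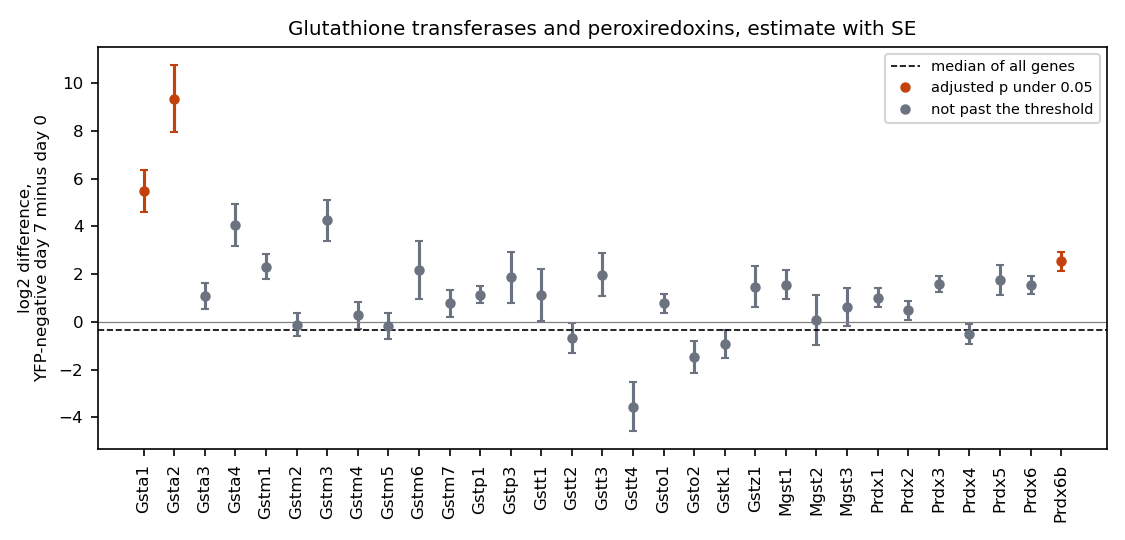
Log2 difference, YFP-negative day 7 minus day 0, with its standard error, for 24 glutathione transferases and 7 peroxiredoxins, and the median of all genes as a dashed line. Gsta2 at 9.36, Gsta1 at 5.5 and Prdx6b at 2.54 passed, and most other members lay above the dashed line at -0.34.

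The Srxn1 promoter (chr2:152105274-152105573, plus strand) and the Plaur promoter (chr7:24462233-24462532, plus strand) are shown for the motifs they hold, from RefSeq on GRCm38.p6. Each runs from 250 bases before to 50 bases after the gene start. Capitals mark TGAGTCA, the letters bound by AP-1, and TGACNNNGC, the core of the antioxidant response element, each searched on both strands. The motifs may overlap, since TGACTCA followed by GC holds both.
Srxn1 promoter: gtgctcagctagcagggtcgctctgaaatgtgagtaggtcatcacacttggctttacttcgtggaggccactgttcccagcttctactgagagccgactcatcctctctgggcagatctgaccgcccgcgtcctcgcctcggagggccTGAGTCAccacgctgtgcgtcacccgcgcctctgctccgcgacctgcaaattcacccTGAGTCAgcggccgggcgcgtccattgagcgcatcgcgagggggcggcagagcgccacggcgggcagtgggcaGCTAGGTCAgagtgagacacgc
Plaur promoter: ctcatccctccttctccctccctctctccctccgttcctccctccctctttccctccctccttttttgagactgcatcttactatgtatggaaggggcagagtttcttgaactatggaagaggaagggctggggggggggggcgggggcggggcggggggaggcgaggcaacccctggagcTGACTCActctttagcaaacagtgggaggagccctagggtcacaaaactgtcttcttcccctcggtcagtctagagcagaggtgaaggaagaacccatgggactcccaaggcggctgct

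Srxn1 holds TGAGTCA 102 and 45 bases before the start, and Plaur holds it on the other strand 69 bases before the start. A gene can have up to 26 promoters, and a gene of a list was counted if any of its promoters held the letters. Counts of genes are therefore not comparable with the percentages of all promoters. TGAGTCA was found in 5.2 percent of 32851 promoters. Among genes with a promoter, 3 of 16 redox genes held it (Me1, Osgin1 and Srxn1). So did 5 of 16 inflammatory genes (Cxcl10, Il1rn, Il6, Lif and Tnfaip3). Not all holders were higher at day 7: Cxcl10 was 2.947-fold lower and Osgin1 1.096-fold lower. TGACNNNGC was found in 12.4 percent of all promoters and in 7 of the 16 redox genes (G6pdx, Gclm, Me1, Nfe2l2, Srxn1, Txnrd1 and Ugdh). Among these, Me1 differed by 2.07 ± 1.25 and G6pdx by 1.71 ± 0.73, and the values of the others stand above. It was found in 3 of 16 inflammatory genes (Cxcl10, Lif and Nfkbia). Of the 12 highest-ranked rises without overlap, 9 genes had a promoter. Among these 9 genes, 1 held TGAGTCA (Plaur) and 1 held TGACNNNGC (Rbks), 11.1 percent of the genes each.

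Hepatocyte and plasma protein genes ran higher at day 7 in most members. Of 26 hepatocyte markers 0 passed, 24 were above 0, 17 had day 7 arrays all higher, and the median was 1.82. Gc, the vitamin D binding protein, was at 2.31, 2.81 and 0.01 at day 7, against -1.78 and -1.1 at day 0 (3.15 ± 0.88, adjusted p = 0.340). Trf, transferrin, differed by 2.09 ± 0.65 and Hnf4a, a transcription factor of hepatocytes, by 2.66 ± 0.89. Day 7 array 4 was the lowest of the 3 for most of these genes. Glul, glutamine synthetase, differed by -0.19 ± 0.50 and G6pc, glucose-6-phosphatase, by -0.82 ± 0.72.

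Of 12 apolipoprotein genes 1 passed (Apoc2), all 12 were above 0 and the median was 2.69. Apoc1 was at 5.23, 5.68 and 5.43 at day 7, against 3.99 and 3.01 at day 0 (1.95 ± 0.48, adjusted p = 0.246). Apoc4 differed by 3.55 ± 1.11 and Apoc3 by 3.94 ± 1.94, while Apoe, which macrophages and stellate cells also make, differed by 0.16 ± 0.42.

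Of 15 acute phase genes, which the liver raises in inflammation, 0 passed, 14 were above 0 and the median was 2.69. Hp, haptoglobin, was at 3.97, 5.16 and 5.49 at day 7, against 1.09 and 1.26 at day 0, with no overlap (3.70 ± 0.70, 13-fold, adjusted p = 0.0962). Lrg1, a secreted glycoprotein, was at 4.73, 4.53 and 3.6, against 2.44 and 1.79 at day 0 (2.17 ± 0.43, adjusted p = 0.110). Orm1, an acid glycoprotein, differed by 6.06 ± 2.63 and Saa2, a serum amyloid, by 4.21 ± 1.78. The mean of the 15 genes was 1.58, 2.59 and 0.73 at day 7, against -1.47 and -0.70 at day 0. Hepatocyte marker levels had the same order over the day 7 arrays as this mean, unlike Hp, which was highest on array 4. Their part in these differences was not tested.

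Of the plasminogen activation genes, Plaur alone passed, and all 7 were above 0. Plau, urokinase itself, was at 2.30, 2.47 and 3.26 at day 7, against 2.53 and 2.41 at day 0, overlapping (0.21 ± 0.65). Plat, tissue plasminogen activator, differed by 1.81 ± 1.36.

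Among 12 tubulin genes measured, Tubb6 passed, and 8 were above 0. Tuba1c differed by 1.42 ± 0.41, Tubb2a by 1.11 ± 0.40 and Tubb3 by 1.27 ± 0.52, while Tuba1a differed by -0.43 ± 0.34 and Tubb5 by 0.29 ± 0.49.

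Of the metalloproteinase list, 0 of 20 passed and the median was 0.23. Mmp12, macrophage elastase, was at -3.71, 0.59 and 0.11 at day 7, against -9.55 and -9.59 at day 0. It was well above background on no day 0 array and was at least 107-fold higher at day 7, without passing (adjusted p = 0.246). Array 1, with low leukocyte markers, was the lowest of the day 7 arrays but still above day 0. Timp3, a matrix-bound inhibitor, was lower at day 7, at 3.14, 1.12 and 0.38, against 3.34 and 3.62 (-1.94 ± 0.64, adjusted p = 0.460).

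Thbs1, thrombospondin, which can release TGF-beta from its latent form, was at 0.59, 1.23 and 3.68 at day 7, against -3.54 and -2.89 at day 0. The gap between groups exceeded the spread within either, yet Thbs1 did not pass (5.04 ± 1.1, 33.0-fold, adjusted p = 0.174). The TGF-beta ligand Tgfb1 differed by 0.38 ± 0.91, the receptor Tgfbr1 by 1.53 ± 0.62 and Pdgfd, a PDGF ligand, by -1.70 ± 0.79. Of the 19 members of the list 0 passed, with a median of 0.47.

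Inflammatory genes, 19 measured, had 0 calls, 17 above 0, 9 with day 7 arrays all higher, and a median of 1.62. Il1rn, the antagonist of the interleukin 1 receptor, was at -1.51, 0.32 and -0.26 at day 7, against -4.42 and -6.89 at day 0 (5.17 ± 1.05, 35.9-fold, adjusted p = 0.125). Cxcl2, a neutrophil-attracting chemokine, was at 0.34, 1.19 and 3.55, against -2.36 and -3.97 at day 0 (4.86 ± 1.16, adjusted p = 0.214). For both genes all day 7 arrays were higher, also array 1.

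Ccl2, which attracts monocytes, was at 1.1, 0.54 and 2.74, against -1.83 and -1.51 at day 0 (3.13 ± 0.78, adjusted p = 0.246). Cxcl5 was highest on day 7 array 1, at 1.47, -0.92 and -3.25, against -6.87 and -4.90 at day 0. Il1b was at 1.14, 3.58 and 4.64, against 1.57 and -1.93, overlapping. Cxcl10, the lowest member of the list, was 2.947-fold lower at day 7. Leukocyte marker levels differed among the same arrays as given above, and their part in the inflammatory genes as a group was not tested.

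Leukocyte lists themselves had 0 calls. Vav1, a signal protein of blood cells, differed by 3.77 ± 1.71, Cxcr2, a chemokine receptor of neutrophils, by 4.84 ± 1.94, and Ccr2, of monocytes, by 6.56 ± 3.14. Elane, neutrophil elastase, was well above background on all day 7 arrays and no day 0 array and was at least 24.6-fold higher at day 7 (adjusted p = 0.500). Clec4f, a Kupffer cell lectin, was at -0.06, 4.47 and 4.54, against 3.27 and 0.72 at day 0. The median was 3.81 for neutrophil, 2.49 for leukocyte and 1.41 for Kupffer cell and macrophage genes, with every member of these lists above 0. It was 1.07 for monocyte and dendritic cell, 0.65 for T and NK cell, 0.63 for B cell and -0.77 for erythroid genes. These medians moved with single arrays. Without day 0 replicate 2 they were 2.30 for neutrophil, 1.40 for leukocyte, 0.25 for Kupffer cell, -0.02 for monocyte, -0.58 for T and NK cell, -0.16 for B cell and -3.51 for erythroid genes. Without day 0 replicate 1 the erythroid median was 0.13.

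Of 14 interferon-response genes 0 passed and 0 were above 0, with a median of -0.90 and 9 with day 7 arrays all lower. Ifi44 was at 0.88, 0.16 and -0.84 at day 7, against 2.38 and 2.39 at day 0 (-2.32 ± 0.76, adjusted p = 0.460), well below on every array. Ifit3 differed by -2.14 ± 0.90.

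Mitosis genes, 21 measured, had 0 calls, 18 above 0, 10 with day 7 arrays all higher, and a median of 1.28. Aurkb, a kinase of chromosome segregation, was at -4.91, -2.59 and -4.81 at day 7, against -8.00 and -9.82 at day 0. It was well above background on no day 0 array and was at least 12.5-fold higher at day 7 (adjusted p = 0.189). Birc5, survivin, was at 4.25, 4.83 and 3.23, against 2.75 and 1.13 (2.17 ± 0.61, adjusted p = 0.340).

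Top2a, topoisomerase 2 alpha, was at 0.27, 1.63 and 0.64 at day 7, against -2.14 and -1.03 at day 0 (2.43 ± 0.72). Mki67, the Ki-67 gene, differed by 1.28 ± 0.67, and the mitotic checkpoint kinase gene Bub1 by 0.02 ± 0.86. Of 18 DNA replication genes 0 passed, 15 were above 0 and the median was 0.58. Cdt1, which licenses replication origins, differed by 2.50 ± 0.66 and Mcm2, of the replicative helicase, by -0.38 ± 0.76. The mean mitosis level was -0.84, -0.30 and -1.77 at day 7 and -2.28 and -2.47 at day 0. The median level was -1.17, -0.70 and -2.13 on day 7 arrays 1, 3 and 4, against -2.16 and -2.23 at day 0. By the median, array 4 was thus close to day 0. The part of leukocyte transcripts in the mitosis difference was not tested.

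Sinusoidal endothelial markers had 0 calls among 20, and 0 were above 0. In 14 of the 20 all day 7 arrays were lower, and the median was -1.51. Stab2, a scavenger receptor, was at 3.75, 2.24 and 2.0 at day 7, against 4.61 and 4.80 at day 0 (-2.04 ± 0.77, adjusted p = 0.500). Array 1 was nearest to day 0 in this list, with a mean of 3.66, beside 2.38 and 2.26 on arrays 3 and 4, against 4.12 and 4.19 at day 0. Gata4, a transcription factor of sinusoidal identity, differed by -1.68 ± 0.78 and Wnt2, a Wnt ligand of these cells, by -1.61 ± 0.73. Markers of large and lymphatic vessels had a median of -0.16. Ccbe1, of lymphatic growth, differed by 3.66 ± 1.29, although 1 of its 3 other probes had the opposite sign.

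Quiescent stellate markers, 18 measured, had 0 calls, 14 above 0, 10 with day 7 arrays all higher, and a median of 1.44. Lrat, which esterifies retinol for storage, was at 1.5, 0.62 and 0.98 at day 7, against -3.43 and -1.28 at day 0. The 3 day 7 arrays were close and well above both day 0 arrays (3.39 ± 0.80, 10.49-fold, adjusted p = 0.203). Des, desmin, differed by -0.11 ± 1.09 and Gfap by -0.96 ± 0.65. The list mean was 1.27, -0.46 and 0.24 at day 7, against -1.31 and -0.56 at day 0, highest on array 1.

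Of 20 myofibroblast markers 0 passed, 14 were above 0 and the median was 0.69. Acta2, smooth muscle actin, was at 4.10, 4.53 and 5.10, against 3.89 and 4.4 at day 0 (0.43 ± 0.34), overlapping, and 3 of its 4 other probes had the opposite sign. Fn1, fibronectin, was at 2.16, 3.97 and 4.73, against 1.17 and 0.12 (2.97 ± 1.08, adjusted p = 0.487), and Postn, periostin, differed by 2.99 ± 1.40. Of 17 collagen genes 0 passed, with a median of 0.70. Without day 7 replicate 1 the median was 0.01 for collagen and 0.15 for myofibroblast genes. The mean collagen level was 1.18, -0.06 and -0.83 at day 7, against -0.52 and -0.28 at day 0, above both day 0 arrays on arrays 1 and 3 and below them on array 4. Col1a1 was at 2.72, 1.31 and -0.12, against 0.05 and 0.42 at day 0, and Col4a1, of basement membranes, differed by -0.67 ± 0.45.

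**Figure D4:**
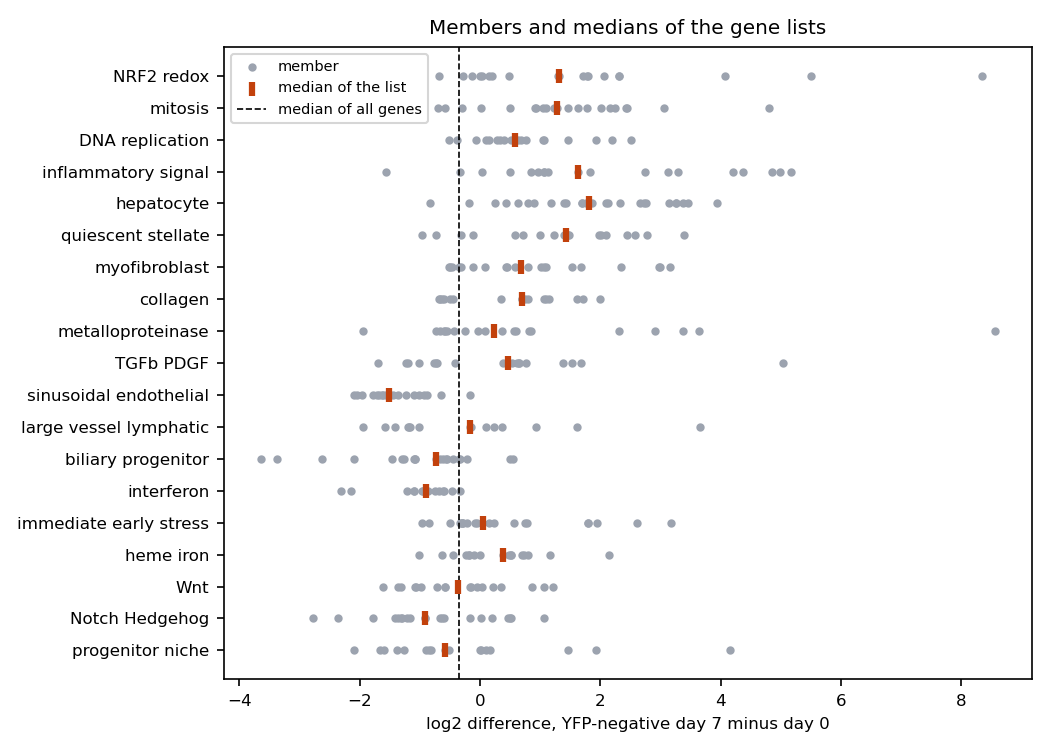
Log2 difference, YFP-negative day 7 minus day 0, of each member (grey points) and the median (bar) of 19 gene lists, with the median of all genes at -0.34 as a dashed line. The medians of hepatocyte (1.82), inflammatory (1.62), quiescent stellate (1.44) and redox genes (1.31) lay right of the line, and those of sinusoidal endothelial (-1.51), Notch and Hedgehog (-0.91) and interferon genes (-0.90) left of it.

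With day 7 array 1 alone, medians were 2.61 for quiescent stellate, 1.85 for mitosis, 1.73 for hepatocyte, 1.14 for inflammatory and 1.02 for redox genes. These lay above that of all genes (-0.26), and those of sinusoidal endothelial (-0.55) and interferon genes (-1.02) below it. Array 1 also entered the medians given before and was picked after seeing the data, so a kept side is no independent check. Most lists of white blood cells did not keep their side. Medians were then -0.60 for leukocyte, -1.41 for Kupffer cell and macrophage, -1.14 for monocyte and dendritic cell, -0.96 for T and NK cell and -0.81 for B cell genes, all below that of all genes, while neutrophil genes had 0.15. Bile duct and progenitor markers (0.30) and Notch and Hedgehog genes (0.29) lay above that of all genes on that array, as did smooth muscle (0.75) and progenitor niche genes (0.22). Collagen genes had a median of 1.81 there.

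Bile duct and progenitor markers, 21 measured, had 0 calls, 2 above 0 and a median of -0.73. Krt19, a keratin of bile duct cells, was at -0.39, -1.92 and -3.22 at day 7, against -0.07 and -1.47 at day 0 (-1.07 ± 1.5), overlapping. Sctr, the secretin receptor, was well above background on no day 7 array and at least 3.43-fold lower, without passing (adjusted p = 0.572). Sox9 was at 1.26, -0.50 and -0.62, against 2.38 and 1.89.

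Notch and Hedgehog genes, 21 measured, had 0 calls and a median of -0.91. Dll4, a Notch ligand of endothelium, was at -1.81, -3.57 and -3.03 at day 7, against -0.53 and -0.35 at day 0 (-2.37 ± 0.66, adjusted p = 0.340). The target Hes1 differed by -1.78 ± 0.74, the Hedgehog receptor and target Ptch1 by -1.37 ± 0.50, and Notch2 by 1.07 ± 0.78. Sinusoidal endothelial markers were lower on the same arrays, and their part was not tested. The Wnt list had a median of -0.37, near that of all genes, and its target Axin2 differed by 0.03 ± 0.87.

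Growth factor and laminin genes of the progenitor niche, 17 in all, had 0 calls and a median of -0.58. Igf1 was at 3.06, 4.68 and 4.15, against 2.79 and 1.29 at day 0 (1.93 ± 0.67, adjusted p = 0.480). Lama1, a laminin chain, differed by 4.16 ± 1.60, Egf by -1.59 ± 0.50 and Fgf7, a stromal growth factor, by -1.37 ± 0.69. Immediate early genes, which respond to cell isolation, had a median of 0.05. Egr2 differed by 3.17 ± 1.06 and Myc by 1.94 ± 0.51, and 2 other Myc probes gave 3.13 and 2.49.

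DDC blocks heme synthesis at ferrochelatase, and of 17 heme and iron genes 0 passed, with a median of 0.39. Alas1, the first enzyme of heme synthesis, differed by 0.47 ± 0.41 (its other probe gave 1.22 ± 0.48) and Fech, ferrochelatase, by -0.64 ± 0.60. Fth1, ferritin heavy chain, was at 5.93, 6.09 and 6.19, against 5.67 and 5.01 at day 0 (0.73 ± 0.31). Of 4 STEAP metalloreductase genes 0 passed. Steap4 differed by 3.58 ± 0.66 (adjusted p = 0.0782) and Steap1 by 4.02 ± 0.82 (adjusted p = 0.125), while Steap2 differed by -0.21 ± 0.89 and Steap3 by -0.38 ± 0.54.

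Close to the threshold without passing were further genes of no list. Hspb8, a small heat shock protein, was at 2.69, 1.98 and 1.0 at day 7, against -1.91 and -1.60 at day 0 (3.64 ± 0.65, adjusted p = 0.0705). Mpp6, a membrane scaffold protein, differed by 2.74 ± 0.50 (adjusted p = 0.0742), Litaf, an endosomal protein, by 1.75 ± 0.32 (adjusted p = 0.0754) and Rbks, ribokinase, by 3.63 ± 0.67 (adjusted p = 0.0782). In the other direction, Slc15a2, a peptide transporter, was at -3.53, -1.47 and 0.05, against 2.72 and 1.36 at day 0 (-3.69 ± 0.79, adjusted p = 0.159). Zmym3, a zinc finger protein, differed by -1.91 ± 0.42 and Lypd6 by -4.19 ± 0.88. Tbx18, a transcription factor of mesenchyme, was at least 9.75-fold lower and Gpr37, an orphan receptor, at least 8.13-fold lower.

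The YFP-negative cells of day 7 were also tested against those of day 3 and day 14 and against YFP-positive cells of day 7, comparisons in which both groups had the same gate for CD45 and none used day 0. In each of the 3, 0 genes passed in limma, with an unadjusted p under 0.05 for 980 genes (3.68 percent), 2030 (7.62 percent) and 1425 (5.35 percent). The smallest adjusted p was 0.460 against day 3, 0.282 against day 14 and 0.140 against YFP-positive cells. The 6 risers thus were not shown to differ between day 7 and these groups. The mean level of the leukocyte markers was -0.92, 2.90 and 2.80 on YFP-positive day 7 arrays 1, 3 and 4. It was thus low on replicate 1 in both fractions of day 7. The fit did not pair arrays by replicate number.

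Gsta1 averaged -0.69 ± 0.50 at day 0 (SD, n = 2), 2.77 ± 1.72 at day 3, 4.81 ± 0.27 at day 7 and 3.06 ± 1.37 at day 14 in YFP-negative cells (n = 3 each). It averaged 2.53 ± 1.02 in YFP-positive cells of day 7 (SD, n = 3). Slides held arrays of several sorted groups, and on each of 3 slides Gsta1 and Gsta2 were higher in the day 7 than in the day 14 array, by 0.87 to 2.98 and by 0.89 to 3.51. On each of 2 slides both were higher at day 7 than at day 3, and higher in YFP-negative than in YFP-positive cells of day 7. On slide 4 the YFP-negative array was replicate 1 and the YFP-positive array replicate 3, which differed in leukocyte markers. Tubb6 was higher than at day 14 by 1.41 to 1.66 on 3 slides, but had no single direction against day 3 (-0.22 to 0.46) or YFP-positive cells (-0.70 to 0.05). Plaur and Prdx6b were higher than at day 3 on both slides, by 0.34 to 1.61 and by 1.58 to 2.02. They had no single direction against day 14 or YFP-positive cells. The genes compared on slides were called because these same day 7 arrays were high against day 0. Higher day 7 values were thus favoured by the choice of genes, and the slide differences are no independent check.

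**Figure D5:**
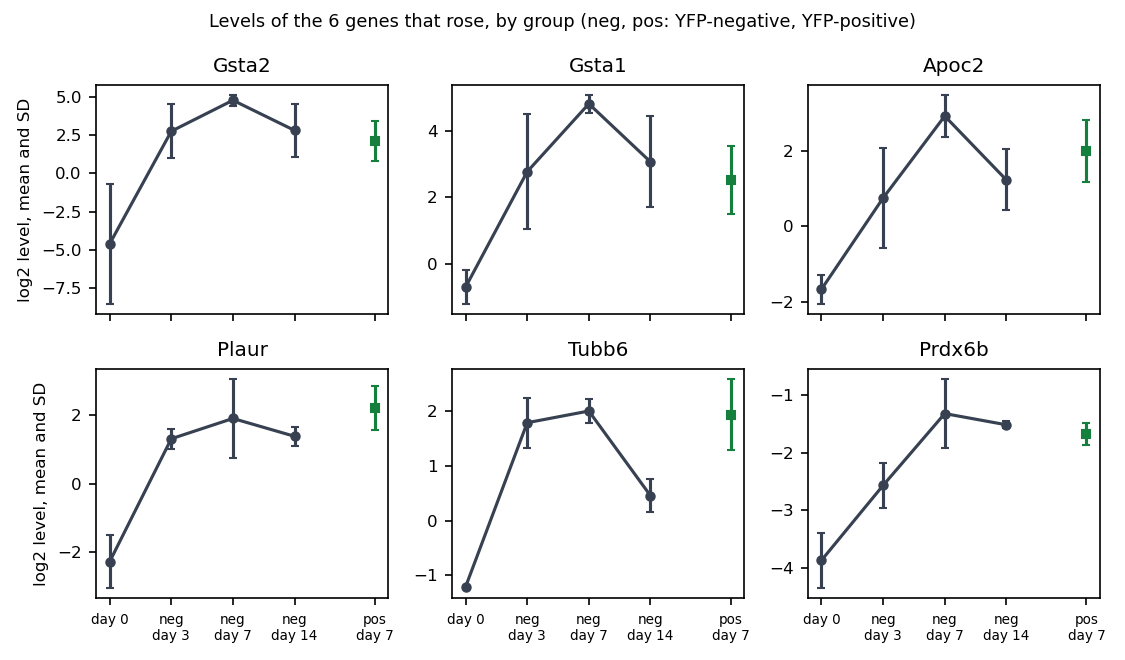
Mean log2 level and SD of the 6 genes that rose, for day 0 (2 arrays), then YFP-negative cells of days 3, 7 and 14 and YFP-positive cells of day 7 (3 arrays each). All sorted groups lay above day 0 in the mean, and Gsta1 stood at 4.81 on day 7 in YFP-negative cells, against 2.53 in YFP-positive cells. The genes were called against the same 2 day 0 arrays, so their low day 0 levels were part of the choice.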

How the data were processed

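RNA was amplified with WT-Ovation Pico and hybridised with Cy3 to 1-colour Agilent arrays of mouse design 014868, per the labels and file headers. The deposited intensity is the processed signal, background-subtracted within the array by Feature Extraction 10.5.1.1 per the file headers (9.53 per the submitters' processing notes), with surrogate values for dim spots and no scaling between arrays. The authors' deposited table gives a signed fold change against day 0 and a false discovery rate in percent. Positions are on mm9.

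Here log2 signal minus each array's 75th percentile was used. Outlier spots were left out, and spots of a probe averaged. Of 41174 probes, 39591 were well above background on at least 2 arrays, and the brightest probe stood for a gene (26647). Gene names in the files were matched to RefSeq by accession (16360), symbol (2318) or synonym (834), and 7135 kept the file's name. All 7 groups were fitted with limma 3.58.1 in R 4.3.3 (2.312 prior and 13 residual degrees of freedom), with Benjamini-Hochberg adjustment over all genes. The code was tested on simulated data. A fold is a bound where the lower group had no array well above background.

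The comparison, the 32 gene lists (510 of 515 entries measured) and the naming rule were chosen with earlier results of these data known. The families of glutathione transferases, peroxiredoxins, plasminogen activation, tubulins, acute phase, apolipoproteins and STEAP were chosen after values were seen. Named were each list's first member, called members or else the 2 with the smallest p, and over all genes up to 12 rises and 12 falls without overlap, filled by smallest p. Other members are given where a list is described member by member. Gene lists got counts and medians and no test. Foxl1 is not analysed here, and some list members are not reported here. The number of arrays limits precision. The closing section gives the 16 alternatives tried, of which day 7 array 1 alone was chosen after seeing the data.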

Additional observations from a re-analysis of the deposited data

How the results depend on the processing

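All 13 genes that passed kept their sign under all 16 alternatives. The alternatives reused the same arrays and the groups of all 13 did not overlap, so a kept sign was likely beforehand. The count of 13 did not hold. The count was 6 with normexp background correction (6 higher, 0 lower), 11 with quantile normalization (8 higher, 3 lower) and 13 with median scaling (8 higher, 5 lower). These scalings moved the median of all genes by 0.12, 0.22 and 0.23. It was 14 without a filter on dim probes, 13 with a stricter one, 10 with the mean of all probes and 13 with the slide as a random block. A fixed slide block left 0 genes (1049 at an unadjusted p under 0.05 in limma), and slide differences there come from other groups. With the 5 arrays alone 0 passed, with 3 residual degrees of freedom (2255 unadjusted). Leaving out arrays gave 0 to 41: 41 and 2 and 8 without day 7 replicates 1, 3 and 4, and 0 and 33 without day 0 replicates 1 and 2. With day 7 array 1 alone, chosen after seeing the data, 3 genes passed, and 3, 7 and 6 did against day 3, day 14 and YFP-positive cells.

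In the fit with the replicate number as a block 0 genes passed (smallest adjusted p 0.0543, 1902 unadjusted). The 2 groups share only number 1 among arrays with a file, so the block rests on other groups, and the labels do not say that numbers pair samples.

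Over the alternatives, Gsta2 passed in 9 of 16 (adjusted p 0.00273 to 0.928), Gsta1 and Apoc2 in 8, Plaur and Tubb6 in 9, and Prdx6b in 7. With the mean of all probes Plaur, Tubb6 and Prdx6b did not pass, and Myc did (adjusted p = 0.0291). Hp, Litaf, Mpp6 and Rbks passed without day 7 replicate 1. Against day 3, 1 gene passed without the filter and 0 to 10 with an array left out. Against day 14 these were 1 and 0 to 64, and against YFP-positive cells 1 gene passed with normexp and 0 to 5 with an array left out. Of the 32 lists, 20 had a median above that of all genes. Under the fixed slide block the T and NK, monocyte, myofibroblast, collagen and TGF-beta lists fell below that of all genes, and without day 7 replicate 3 the Notch and Hedgehog list did not lie below it. With day 7 array 1 alone the leukocyte, Kupffer cell, monocyte, T and NK and B cell lists fell below that of all genes, and the bile duct, Notch, smooth muscle and progenitor niche lists lay above it. The large vessel list changed sides with quantile normalization, with the mean of all probes and without day 7 replicate 1 or 3 or day 0 replicate 1. The Wnt list did so with normexp, quantile normalization, the replicate block, day 7 array 1 alone and without day 7 replicate 4 or day 0 replicate 1. The cause of these shifts was not tested.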
